A study of Mus musculus with 2 samples.

Results

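Sfn, Ptx3, Alpl, Lgals7, Plet1 and Plet1os are 6 of the 54438 mouse genes summed from the deposited transcript tables. They were picked because their levels in library W2 were far above those in library W1 and because they are neither keratins nor actins. They were thus chosen by the ratio of TPM in library W2 to TPM in library W1, and the size of that ratio is a description that carries no test. Library W2 and library W1 are bulk RNA libraries from cells sorted as mammary gland basal cells, the outer epithelial layer of the gland, from wild type C57BL/6 mice aged 8 weeks. The labels of both libraries are alike except for the titles W2 and W1. The study concerned basal cells that carry Pdl1 on their surface and those that do not, but no label says which library is which. Neither library was placed in a Pdl1 class, each stands alone without a replicate, and every difference below is a difference between 2 libraries. The sources used here give no antibodies, gates or number of mice pooled.

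The 6 genes act in different places in the cell. Sfn encodes 14-3-3 sigma, an epithelial adaptor protein that binds phosphorylated partners and is known as a p53 target that holds cells before mitosis. Ptx3 encodes the long pentraxin PTX3, a protein found outside the cell that binds complement and matrix components. Lgals7 encodes galectin-7, a sugar-binding protein of stratified epithelia. Alpl encodes tissue-nonspecific alkaline phosphatase and Plet1 a surface protein first described in placenta and hair follicle progenitors, and both are held on the outer membrane by a GPI anchor. Plet1os is an antisense transcript without a known protein that is read from the strand opposite Plet1.

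Levels are TPM, a scale that divides reads by transcript length and makes each library sum to the same total. The deposited values fall in steps of 1 read, which gave about 3800030 reads for library W2 and 3055840 for library W1. The libraries differed over much of the transcriptome. A level of 1 TPM in either library was reached by 12587 genes. On the scale of TPM + 1, library W2 was at least 2-fold above library W1 for 32.9% of them and at least 2-fold below it for 34.7%, which makes 67.6% past 2-fold either way. The median log2 ratio of these genes, W2 over W1, was 0.07, and other scalings put it between -0.37 and 0.31. The noncoding transcript Gm23935 took 4.13% of TPM in library W2 and 27.7% in library W1. Its share of reads was smaller, 0.188% in library W2 and 1.56% in library W1. Mitochondrial messenger RNAs took 12.9% in library W2 and 2.0% in library W1.

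As a summed list, basal markers were abundant in library W2 and, apart from Mylk, near absent from library W1, which goes against the label of library W1. Of 9 compared basal and myoepithelial markers, all 9 were higher in library W2, with a summed level of 36793 TPM in library W2 and 54.7 TPM in library W1. Most of the sum in library W1 came from Mylk, at 45.4 TPM (1001 reads) there and 138 TPM in library W2. Krt5 had 3923 reads in library W2 and 0 in library W1, and Krt14 had 6230 reads in library W2 and 1 in library W1. Trp63 and Itgb4, with 8 and 10 listed transcripts, were listed at 0 in both, and how much sequence those transcripts share was not measured. Endothelial markers lay the other way, with 0 of 7 higher in library W2, 7 of 7 higher in library W1, and sums of 4.86 TPM in library W2 and 4671 TPM in library W1. Of 9 compared luminal markers, 7 were higher in library W2 and 1 was lower there: Kit, with 0 reads in library W2 and 67 in library W1. The luminal list summed to 4669 TPM in library W2, mostly from Krt8, Epcam and Krt18. In library W1 it summed to 39.5 TPM, mostly from Kit (25.5 TPM). Prlr, Elf5 and Csn2 of that list were at 0 in both. Fibroblast markers summed to 206 TPM in library W2 and 3.19 TPM in library W1. The basal, luminal and fibroblast lists, each taken as a whole, moved in the direction of the 6 genes, and the endothelial list moved against it. The part of these lists in the ratios of the 6 genes was not tested. In bulk RNA, fewer cells of a type and less RNA per cell cannot be told apart.

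Sfn was the most abundant of the 6 genes, at 5297 TPM in library W2 (26062 reads) and 6.34 TPM in library W1 (31 reads). Plet1os stood at 1514 TPM in library W2 (5166 reads), with 0 reads in library W1. Plet1 stood at 872 TPM in library W2 (4488 reads), with 0 reads in library W1. The antisense transcript was thus listed above the gene it overlaps. Lgals7 stood at 768 TPM in library W2 (1751 reads), with 0 reads in library W1. Ptx3 stood at 713 TPM in library W2 (4126 reads) and 2.43 TPM in library W1 (14 reads). Alpl was the lowest, at 250 TPM in library W2 (1922 reads) and 1.38 TPM in library W1 (3 reads). Together the 6 genes held 43515 reads in library W2, or 1.15% of that library, and 48 reads in library W1.

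**Figure D1:**
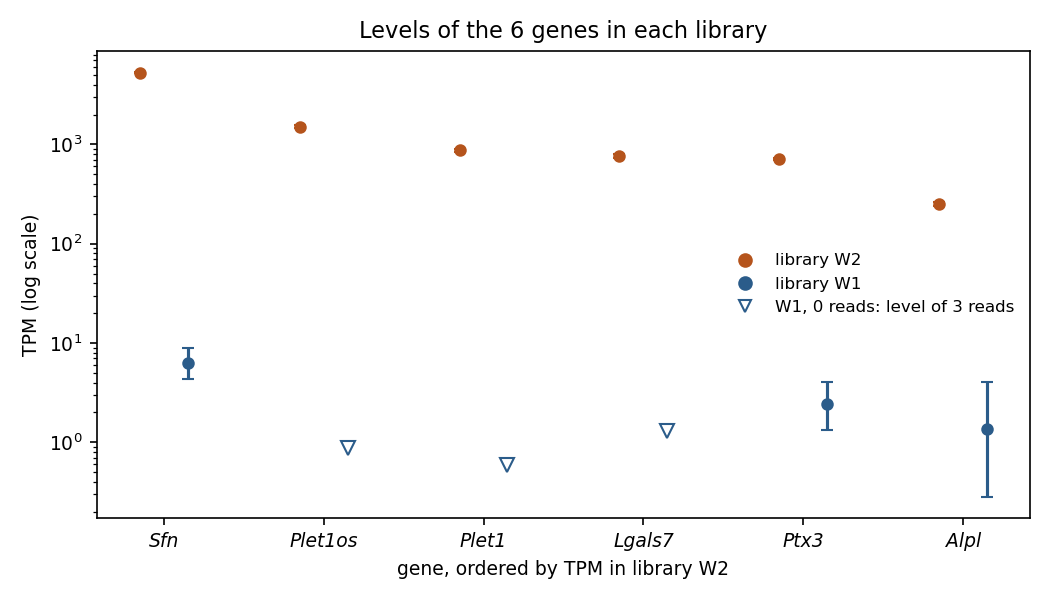
TPM of the 6 genes on a log scale in library W2 (filled orange) and library W1 (filled blue), ordered by level in library W2; bars are exact 95% Poisson intervals on the recovered reads and open triangles mark the level of 3 reads where library W1 had 0. In library W2 the genes run from 5297 TPM for Sfn to 250 TPM for Alpl, while no level in library W1 is above 6.34 TPM.

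Counting error left this order in place. Exact Poisson intervals at 95% on the reads of library W2 ran from 5232 to 5361 TPM for Sfn, from 1473 to 1556 TPM for Plet1os and from 847 to 898 TPM for Plet1. They were 732 to 805 TPM for Lgals7, 691 to 735 TPM for Ptx3 and 239 to 261 TPM for Alpl. Lgals7 and Ptx3 were the closest neighbours, with a ratio of their levels of 1.08 (exact 95% interval 1.02 to 1.14), and every ratio between neighbours had an interval above 1. In library W1 the interval was 4.31 to 9.003 TPM for Sfn, 1.33 to 4.08 TPM for Ptx3 and 0.284 to 4.02 TPM for Alpl. These intervals cover counting error only, because the reads carry no molecular identifiers and the cDNA was amplified.

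The order also depends on what a level is divided by. How reads that fit several transcripts were counted is not stated in the sources used here. A level per 50-base window found in no other listed transcript, which would be the fitting scale if such reads went uncounted, was therefore set beside TPM. With windows searched on both strands, Plet1os had 19.9 reads per such window in library W2 and Sfn had 19.6, so the pair stood level on that scale, where TPM put Plet1os at 28.5% of Sfn. With windows searched on the transcript's own strand alone, Plet1os came to 61.4% of Sfn. Plet1 stood at 21.6% of Sfn with both strands searched and 19.04% with 1 strand, and Lgals7 at 20.1% either way. Plet1 and Lgals7 thus changed places with 1 strand searched and kept their order with both. Ptx3 (14.1%) and Alpl (5.74%) kept the last places.

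As a ratio of library W2 over library W1, all 6 genes passed 2-fold, against 32.9% of all compared genes, which follows from how they were picked. On the log2(TPM + 1) scale the differences were 10.57 for Plet1os, 9.77 for Plet1, 9.59 for Lgals7, 9.49 for Sfn, 7.70 for Ptx3 and 6.72 for Alpl. The ratio of TPM was 835-fold for Sfn (exact 95% interval 588 to 1229), 293-fold for Ptx3 (174 to 536) and 181-fold for Alpl (62.0 to 881). With a floor of 3 reads in library W1, the level in library W2 was at least 1712-fold higher for Plet1os, at least 1488-fold higher for Plet1 and at least 585-fold higher for Lgals7. Among 6810 genes with 20 or more reads in at least 1 library, with predicted, ribosomal protein and pseudogenes passed over, the 6 held places 3, 8, 9, 10, 22 and 47 of the order by this difference. Genes standing between them include Epcam in place 4, Krt14 in place 6 and Perp in place 11.

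**Figure D2:**
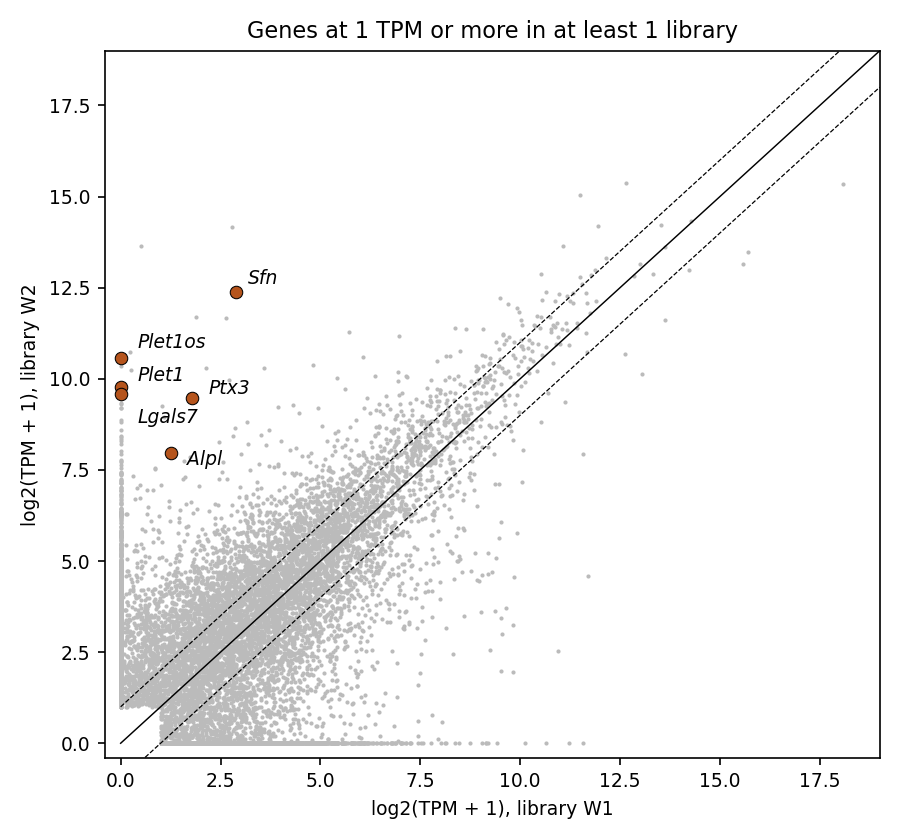
Each point is 1 of the 12587 compared genes, by log2(TPM + 1) in library W2 (vertical) and library W1 (horizontal); the solid line marks equal levels, the broken lines a 2-fold difference, and the 6 genes are drawn large and named. Plet1os, Plet1 and Lgals7 lie on the left edge, where library W1 had 0 reads, and Sfn, Ptx3 and Alpl lie between 9.49 and 6.72 log2 units above the line of equal levels.

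The few reads in library W1 are given here as a description, since the genes were chosen on the same values. For every 10000 reads in library W2, library W1 had 33.9 reads of Ptx3 (exact 95% interval 18.5 to 57.0), 15.6 of Alpl (3.22 to 45.7) and 11.9 of Sfn (8.08 to 16.9). For Lgals7, Plet1 and Plet1os it had 0 reads. The same figure was 55.0 for Krt18 (35.2 to 81.995), 15.96 for Myl9 (9.45 to 25.2), 8.16 for Tagln (4.34 to 13.95), 3.28 for Acta2 (2.31 to 4.52), 1.61 for Krt14, 0.990 for Krt8 and 0.330 for Krt17 (0.0400 to 1.19). Krt18 was thus the highest of the keratins given. Krt14 and Krt8 rest on 1 read each in library W1 and Krt17 on 2. The intervals of Krt14 (0.0406 to 8.95) and Krt8 (0.0251 to 5.52) overlap that of Krt17, so their order is not settled.

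Sfn (ENSMUSG00000047281.3, GRCm38, chromosome 4, 133600556 to 133602168, minus strand) has a single exon and 1 listed transcript. Of its 1564 windows of 50 bases, 1329 occur in no other listed transcript. The rest are shared with processed pseudogenes, 184 windows with Gm7850 and 87 with Gm5279. Gm7850 had 2 reads in library W2 and 0 in library W1, and Gm5279 had 0 in both. Reads given to pseudogenes were thus few beside the 26062 of Sfn. The genes on either side differed little: Gpn2 stood at 1.68 TPM in library W2 and 1.21 TPM in library W1, and Zdhhc18 at 6.77 TPM in library W2 and 8.00 TPM in library W1.

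Sfn was the single 14-3-3 gene with a difference past 2-fold. The other 6 family members, which are adaptors found in most cell types, lay between log2 ratios of -0.41 and 0.39. Ywhae stood at 369 TPM in library W2 and 339 TPM in library W1, Ywhab at 279 TPM in library W2 and 282 TPM in library W1, and Ywhaz at 226 TPM in library W2 and 173 TPM in library W1. Ywhah stood at 237 TPM in library W2 and 301 TPM in library W1. Ywhag was the lowest in ratio, at 27.8 TPM in library W2 and 37.1 TPM in library W1. All 6 stayed within 2-fold under each of the scalings, pseudocounts and filters tried. In library W2, Sfn was therefore the most abundant 14-3-3 messenger RNA by TPM, and in library W1 the least abundant.

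Partners and fellow targets of Sfn gave mixed results. Of 12 genes of mitotic entry and 14-3-3 binding, 6 could be compared, with 1 higher in library W2, 1 lower there (32.9% and 34.7% over all genes) and a median log2 ratio of 0.16, which turned negative in library scalings by FPKM (-0.06) or without Gm23935 (-0.25). The one higher in library W2 was Wee1, a kinase that holds back mitosis, at 27.4 TPM in library W2 and 3.09 TPM in library W1, 8.88-fold (6.15 to 13.2). Chek1, a DNA damage checkpoint kinase, had 0 reads in library W2 and 14 in library W1. Bax, an inducer of cell death, Yap1, a transcription coactivator that 14-3-3 proteins bind, and Cdc25a, a phosphatase of the cell cycle, lay within 2-fold, at log2 ratios of 0.54, 0.24 and -0.23. Of 14 compared p53 targets other than Sfn, 7 were higher in library W2 and 3 were lower there, where 32.9% and 34.7% of all compared genes were, and the median was 0.85. Perp, a desmosome protein and p53 target, stood at 633 TPM in library W2 (3772 reads) with 0 reads in library W1. Phlda3, an inhibitor of Akt signalling, stood at 159 TPM in library W2 and 0.23 TPM in library W1. Eda2r, a receptor of the TNF family, had 0 reads in library W2 and 39.97 TPM in library W1. The gene of p53 itself, Trp53, stood at 0.5 TPM in library W2 (5 reads) and 2.52 TPM in library W1 (25 reads).

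Promoter windows were read to show what sequence lies at these starts. They are RefSeq sequences of GRCm38.p6, 250 bases before to 50 after the start, 5′ to 3′ on the gene's strand, and all 6 genes matched, with 7 windows in all. Capitals mark matches, on either strand, to TATAAA (held by 13.6% of 32851 promoter windows), GGGCGG (35.7%), CCAAT (37.4%), TGANTCA (the AP-1 site, 7.81%), the NF-kB motif (8.46%) or the p53 family decamer (8.36%). The decamer had 0 matches in the 7 windows, which says only that these letters are not there. The Sfn window (chr4:133602119-133602418) has a CCAAT box whose first base is at -128, and 4 CpG dinucleotides against a median of 7 over all windows.
Sfn: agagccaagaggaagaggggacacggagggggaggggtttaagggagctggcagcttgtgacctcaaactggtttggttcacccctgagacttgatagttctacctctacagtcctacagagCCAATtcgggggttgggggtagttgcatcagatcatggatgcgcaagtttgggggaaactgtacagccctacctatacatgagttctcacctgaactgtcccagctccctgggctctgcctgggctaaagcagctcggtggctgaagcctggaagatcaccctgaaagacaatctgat

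Ptx3 (ENSMUSG00000027832.5, chromosome 3, 66219910 to 66225805, plus strand) had all of its reads on the 3-exon coding transcript Ptx3-201. The intron-retaining Ptx3-202, which has 782 windows of its own, had 0 reads in both libraries. The gene lies inside the span of Veph1, on the opposite strand, which had 0 reads in either library. Its nearest coding neighbours were Ccnl1, at 1.48 TPM in library W2 and 6.99 TPM in library W1, and Shox2, with 0 reads in both. The window at the RefSeq start of Ptx3 (chr3:66219637-66219936) holds a pair of overlapping NF-kB motif matches, GGGGAACTCC with its first base at -1 and GGGAACTCCC at 1, so the capitals run over both.
Ptx3: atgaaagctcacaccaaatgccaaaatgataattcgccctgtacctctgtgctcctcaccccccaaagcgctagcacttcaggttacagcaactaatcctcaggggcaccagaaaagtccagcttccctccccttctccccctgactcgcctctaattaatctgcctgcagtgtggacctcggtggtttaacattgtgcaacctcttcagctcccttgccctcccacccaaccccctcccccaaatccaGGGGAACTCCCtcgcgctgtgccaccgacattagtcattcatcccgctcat

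Among the pentraxins, Ptx3 was the member with high counts. Nptx1, a neuronal pentraxin, stood at 2.64 TPM in library W2 and 1.84 TPM in library W1. Nptx2 had 14 reads in library W2 and 0 in library W1. Crp, Apcs, Ptx4 and Nptxr were listed at 0 in both libraries. Ptx4 and Nptxr have few windows of their own, so a 0 there carries little information, while each listed transcript of Crp and Apcs has 922 or more.

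Genes of the hyaluronan matrix that PTX3 crosslinks lay on both sides. Has2 stood at 52.2 TPM in library W2 (675 reads) with 0 reads in library W1, at least 223-fold. Has1 stood at 52.1 TPM in library W2 and 3.35 TPM in library W1, 15.6-fold (10.6 to 23.6). Tnfaip6, the hyaluronan-binding protein TSG-6 that joins PTX3 to the matrix, stood at 323 TPM in library W2 and 49.4 TPM in library W1. Has3, the remaining synthase, stood at 1.42 TPM in library W2 and 4.51 TPM in library W1. Hapln1, a protein that links hyaluronan to proteoglycans, had 0 reads in library W2 and 46 in library W1. Itih5, of the inter-alpha-trypsin heavy chain family, had 287 reads in library W2 and 1064 in library W1, 3.73-fold (3.27 to 4.27) higher in library W1. Fgf2, a growth factor that PTX3 binds, stood at 17.2 TPM in library W2 and 1.33 TPM in library W1, 13.0-fold (8.58 to 20.6).

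Partners of PTX3 in complement and cell adhesion are also on the list. Selp, the endothelial and platelet adhesion molecule P-selectin, had 0 reads in library W2 and 470 in library W1, at 48.4 TPM. C1qb, a subunit of the complement component C1q, had 0 reads in library W2 and 13 in library W1. The subunit C1qc had 0 reads in library W2 and 5 in library W1. C1qa lay within 2-fold, with 12 reads in library W2 and 19 in library W1. Over the 13 compared genes of the list, 4 were higher in library W2, 7 were lower there, against 32.9% and 34.7% of all compared genes, and the median was -1.19. Among the 8 of them with 20 or more reads, 4 were higher in library W2 and 3 were lower there, against 34.0% and 29.6% of all genes under that filter. The median of those 8 was 1.81, so the list has no single direction. The endothelial markers lay on the side of Selp, with 0 of 7 higher in library W2 and 7 of 7 lower there. Of 3 compared leukocyte markers, 0 were higher in library W2 and 2 were lower there, with sums of 6.90 TPM in library W2 and 88.4 TPM in library W1. Lyz2 had 0 reads in library W2 and 186 in library W1, and Cd79a had 0 in library W2 and 145 in library W1. The part of either list in the values of Selp and the C1q genes was not tested.

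Alpl (ENSMUSG00000028766.10, chromosome 4, 137741733 to 137796384, minus strand) lies 4139564 bases from Sfn on the same chromosome. It has 8 listed transcripts, and the reads of the libraries were counted on different ones. All 1922 reads of library W2 were counted on Alpl-201, the 12-exon coding transcript, where library W1 had 0 reads. The level of Alpl-201 in library W2 was at least 636-fold higher. All 3 reads of library W1 were counted on Alpl-204, a 719-base processed transcript with no coding sequence, where library W2 had 0 reads. The 433 windows that belong to Alpl-204 alone all start in its first exon of 438 bases. At 1.38 TPM (0.284 to 4.02) in library W1, Alpl-204 cannot be told from the level of 3 reads in library W2, which is 1.37 TPM. The coding Alpl transcript was therefore not detected in library W1.

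**Figure D3:**
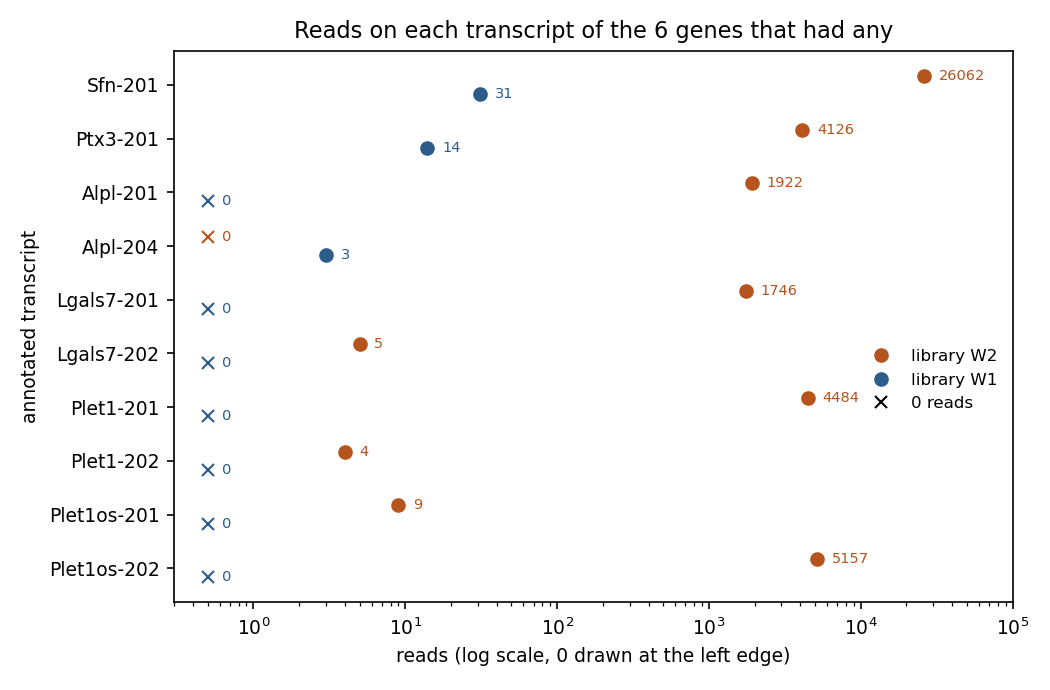
Reads on a log scale for the 10 of 18 listed transcripts of the 6 genes that had any, in library W2 (orange) and library W1 (blue), with crosses at the left edge for 0. Each gene has 1 transcript with nearly all of its reads in library W2, and for Alpl the reads of the libraries lie on different transcripts, 1922 on Alpl-201 in library W2 and 3 on Alpl-204 in library W1.

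RefSeq gives Alpl a pair of starts, which belong to different transcripts. The upstream window (chr4:137796335-137796634) belongs to the start of Alpl-201. It is 70.0% G or C, holds 26 CpG, more than 83.1% of all windows, and has 3 GC boxes with first bases at -15, -10 and 1. The downstream window (chr4:137766426-137766725) belongs to the start of Alpl-205, is 54.3% G or C, and holds 4 CpG and a TATAAA match on the opposite strand at -192. The windows are printed to show this contrast.
Alpl upstream: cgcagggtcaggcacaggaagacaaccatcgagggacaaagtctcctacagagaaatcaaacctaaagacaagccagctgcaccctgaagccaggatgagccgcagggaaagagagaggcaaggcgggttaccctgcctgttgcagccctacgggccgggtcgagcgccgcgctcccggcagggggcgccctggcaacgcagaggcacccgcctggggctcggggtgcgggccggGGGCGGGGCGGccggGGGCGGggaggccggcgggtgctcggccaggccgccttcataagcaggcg
Alpl downstream: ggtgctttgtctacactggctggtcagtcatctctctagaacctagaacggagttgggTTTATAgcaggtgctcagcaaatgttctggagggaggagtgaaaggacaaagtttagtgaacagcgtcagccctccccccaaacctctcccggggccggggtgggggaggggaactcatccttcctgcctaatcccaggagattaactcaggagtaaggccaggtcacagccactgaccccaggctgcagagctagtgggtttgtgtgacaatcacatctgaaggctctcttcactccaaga

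Alpl-205, the transcript of the downstream start, has 163 windows of its own, all in its first exon, and 0 reads in either library. Alpl-201 has 1708 windows of its own, of which 138 start in exon 1 and 921 in exon 12. The tables do not place reads within a transcript, so how many came from exon 1 is not known.

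Alpl was the single alkaline phosphatase with reads. Alpi, Akp3 and Alppl2, the intestinal and embryonic enzymes, were listed at 0 in both libraries. The coding transcripts of Alppl2 have 103 and 27 windows of their own, so its 0 carries little information. Among 9 compared genes of mineralisation, phosphate transport and ectonucleotidases, 6 were higher in library W2 and 2 were lower there, beside 32.9% and 34.7% of all compared genes, and the median was 1.80. Ank, which exports pyrophosphate, a substrate of the Alpl enzyme, stood at 16.2 TPM in library W2 (173 reads) with 1 read in library W1. Enpp1, which makes pyrophosphate outside the cell, had 186 reads in library W2 and 0 in library W1, at least 61.6-fold. Runx2, a transcription factor of bone and mammary cells, had 80 reads in library W2 and 1 in library W1. Enpp2, the secreted lysophospholipase autotaxin, was 11.1-fold (9.88 to 12.6) higher in library W1, at 30.9 TPM in library W2 and 345 TPM in library W1. Ece1, the neighbour of Alpl and an endothelin-converting enzyme, stood at 58.3 TPM in library W2 and 119.7 TPM in library W1, opposite in direction to Alpl.

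Lgals7 (ENSMUSG00000053522.11, chromosome 7, 28863853 to 28866284, plus strand) had 1746 of its 1751 reads in library W2 on the coding transcript Lgals7-201 and 5 on the noncoding Lgals7-202. An antisense gene across the locus, Gm10648, had 0 reads in both libraries. Lgals4, the nearest coding gene upstream and itself a galectin, had 0 reads in library W2 and 11 in library W1, all on an intron-retaining transcript. Capn12, on the other side, had 0 reads in both.

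The other galectins were listed at low levels in both libraries. Of 7 compared, 2 were higher in library W2 and 5 were lower there, next to 32.9% and 34.7% over all genes, and the median was -2.02. Lgals1, a dimeric galectin of mesenchymal cells, had 30 reads in library W2 and 0 in library W1. Lgalsl, a galectin-like protein, stood at 16.7 TPM in library W2 and 5.20 TPM in library W1. Lgals3bp, a secreted glycoprotein that galectins bind, stood at 8.44 TPM in library W2 and 37.3 TPM in library W1, 4.41-fold (3.32 to 5.94) higher in library W1. The rest of the count rests on 15 or fewer reads a gene, and among the 3 with 20 or more reads the median was 1.51. Lgals3 was listed at 0 in both libraries, and each of its 6 transcripts has 222 or fewer windows of its own. Each coding transcript of Lgals8 has 233 or fewer and of Lgals9 75 or fewer, so low listed values of these 3 genes do not show low expression.

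Plet1 (ENSMUSG00000032068.14, chromosome 9, 50494525 to 50505482, plus strand) lies wholly inside the span of Plet1os (ENSMUSG00000101304.1, chromosome 9, 50488795 to 50507823, minus strand), 10958 bases within 19029. In library W2, Plet1-201 had 4484 reads and Plet1-202 had 4, while Plet1os-202 had 5157 and Plet1os-201 had 9. Library W1 had 0 reads on all 4. The exons overlap less than the spans: Plet1-201 and Plet1os-202 share 261 bases, which is 15.5% of Plet1-201 and 23.3% of Plet1os-202. Plet1os-201 shares 0 exon bases with either Plet1 transcript.

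**Figure D4:**
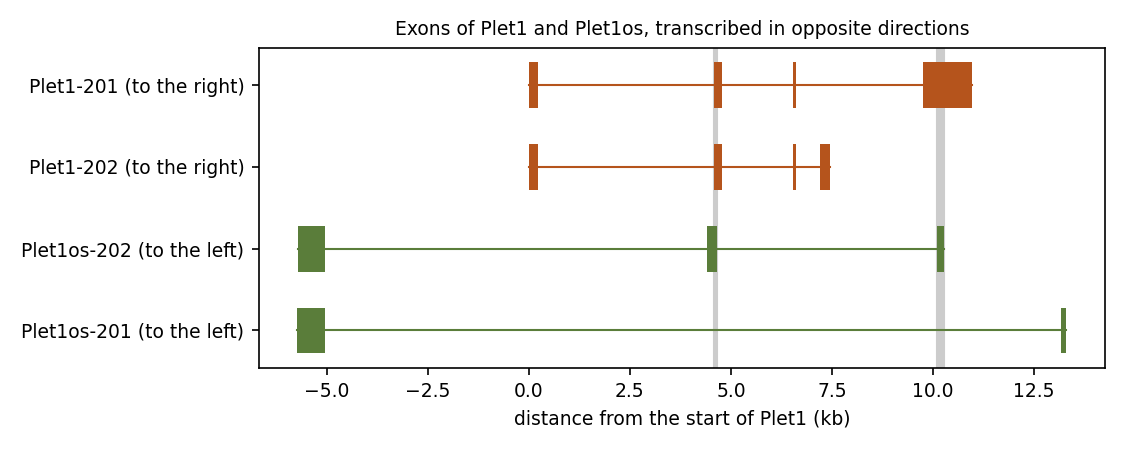
Exons (boxes) and introns (lines) of the Plet1 and Plet1os transcripts by distance in kb from the start of Plet1, with the direction of transcription given in words and the exon bases shared between strands shaded grey. The shaded stretches are 261 bases in all, and 76.7% of Plet1os-202 lies outside them.

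The libraries were made with a stranded kit, but the sources used here do not say whether the counting used strand. Without strand, reads from the shared bases of Plet1 and Plet1os cannot be told apart. Plet1os-202 shares 169 windows with the opposite strand of Plet1. How many of the 5157 reads of Plet1os-202 fell in those windows is not known, since the tables do not place reads within a transcript. The reads of Plet1os in library W2 were 1.15 times those of Plet1, and its TPM 1.74 times that of Plet1.

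The start of Plet1 (chr9:50494275-50494574) is printed because it is the only one of the 7 windows with a TATAAA match near the usual distance, at -30, and the only one with an AP-1 site, TGATTCA at -144. A CCAAT match on the opposite strand has its first base at -183. The Plet1os window (chr9:50504756-50505055) has a CCAAT match at -13, and 2 CpG.
Plet1: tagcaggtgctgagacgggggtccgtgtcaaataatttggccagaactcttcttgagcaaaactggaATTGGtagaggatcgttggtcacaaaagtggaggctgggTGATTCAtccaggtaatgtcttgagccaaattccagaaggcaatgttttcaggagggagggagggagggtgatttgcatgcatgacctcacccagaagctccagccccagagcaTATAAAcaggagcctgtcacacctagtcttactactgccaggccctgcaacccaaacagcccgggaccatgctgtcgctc

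The genes around this locus differed little or had no reads. Rpl10-ps3 stood at 634 TPM in library W2 and 580 TPM in library W1, and Pts had 0 reads in both.

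Of 16 genes of the compartments that Plet1 marks in placenta and skin, 8 could be compared and 6 had 0 reads in both libraries. Those 6 were Cdx2, Elf5, Esrrb, Lrig1, Krt79 and Foxn1. Of the 8, 6 were higher in library W2 and 2 were lower there, while 32.9% and 34.7% of all compared genes were, and the median was 5.15. Of the placental regulators, Tfap2c had 134 reads in library W2 and 0 in library W1, Tead4 had 0 reads in library W2 and 55 in library W1, and Eomes did not reach 1 TPM. Epcam, an adhesion molecule of epithelia, stood at 1511 TPM in library W2 (9404 reads) with 0 reads in library W1. Sox9, a transcription factor of hair follicle and mammary progenitors, stood at 208 TPM in library W2 and 4.95 TPM in library W1. Lgr6, a receptor of follicle and basal stem cells, had 711 reads in library W2 and 0 in library W1. Gata6, a transcription factor of the follicle's upper part and of several other tissues, went the other way at 0.429 TPM in library W2 and 52.3 TPM in library W1. Krt8, Krt18 and Epcam of this list are also luminal markers.

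Enzymes that make the GPI anchor carried by the Alpl and Plet1 proteins differed in each direction about as often as all genes. Of 15 compared, 5 were higher in library W2 and 6 were lower there, near the 32.9% and 34.7% over all genes. The median was -0.10, and it was 0.10 with mitochondrial and ribosomal protein genes left out of the scaling. Over all alternatives it ran from -0.55 without Gm23935 to 0.28 with the filter of 20 reads. Pigf, which acts in adding the ethanolamine phosphate that joins the anchor to a protein, stood at 103 TPM in library W2 and 21.4 TPM in library W1, 4.83-fold (3.68 to 6.42). Pigm, a mannosyltransferase of the same pathway, stood at 4.12 TPM in library W2 and 13.3 TPM in library W1. Pgap2, which acts in remodelling the anchor's lipid, had 35 reads in library W2 and 0 in library W1, and Pigl, a deacetylase of an early step, had 0 in library W2 and 55 in library W1.

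Galectin-7 and 14-3-3 sigma are known from stratified epithelia, and most compared genes of that list were higher in library W2. Of 17 compared, 14 were higher in library W2 (32.9% over all genes), 0 were lower there (34.7% over all genes), 3 lay within 2-fold and the median was 3.90, against 0.07 over all genes. Pkp3 is among the 14 on 2 reads in library W2 and 0 in library W1. With a pseudocount of 5, 12 of 17 were higher in library W2, where 19.9% of all genes then were, and the median was 2.24. Of the other genes of the list, 5 had no reads in either library and 3 did not reach 1 TPM. Krt15, a basal layer keratin, stood at 343 TPM in library W2, Lypd3, a GPI-anchored surface protein, at 257 TPM, and Aqp3, a water and glycerol channel, at 127 TPM, each with 0 reads in library W1. Of its desmosome genes, Pkp1 had 1060 reads and Dsc3 226 reads in library W2, with 0 in library W1, while Dsp and Dsg3 did not reach 1 TPM in either library. The basal marker list (9 of 9 higher in library W2) moved with this list, and its part was not tested.

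The genes whose levels in the 2 libraries came nearest to those of each gene were found by distance in the plane of log2(TPM + 1). With 2 libraries, this likeness says no more than that both levels were close. Sfn lay nearest to Myl9 (distance 0.73) and Tagln (1.21), contractile genes of myoepithelium. Ptx3 lay nearest to Krt18 (1.04), a luminal keratin, and Clca3a2 (1.38), a gene of the chloride channel accessory family. Alpl lay nearest to Nbl1 (0.41), a secreted BMP antagonist, and Gfpt2 (0.51), an enzyme of hexosamine synthesis, which stood at 215 and 231 TPM in library W2. Lgals7 and Plet1 lay nearest to each other (0.18), with Perp next to both (0.28 from Lgals7 and 0.46 from Plet1). Plet1os lay nearest to Epcam (0.0031), whose level in library W2 was 1511 TPM, and then to Krt8 (0.28). In the order by ratio alone, Ptx3 stood between Krt16 (209 TPM in library W2, 0 reads in library W1) and Fam180a (199 TPM in library W2, 0 reads in library W1). Alpl stood between Mmp2, a matrix protease at 107 TPM in library W2 with 0 reads in library W1, and Cxadr, a junction protein at 188 TPM in library W2 and 0.828 TPM in library W1. Sfn stood between Lgals7 and Perp, and Plet1os between Acta2 and Epcam.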

How the data were processed

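Cells were sorted, lysed in a Smart-seq reagent and sequenced from a stranded KAPA kit, per the labels' protocols. Bowtie 0.12.2 and the builds mm8 and GRCm38 are named, without roles, per the submitters' processing notes; the sources used here name no counting tool and no use of strand. The authors deposited TPM and FPKM for 137767 Ensembl transcripts. The files held 0 further value columns. Of these transcripts, 137654 matched GENCODE M21, whose coordinates are used, and values were summed per gene.

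Deposited FPKM times transcript length falls on steps of 1 read. Within 0.1 read, 98.0% (library W2) and 98.5% (library W1) of transcripts above 0 came out whole. Reads gave exact Clopper-Pearson intervals on ratios and exact Poisson intervals on levels, at 95%, and a floor of 3 reads for a count of 0. These cover counting error only. The scale is log2(TPM + 1), which understates the ratio of low genes, and genes that reached 1 TPM in either library were compared at 2-fold. With 1 library of each title there is no test.

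The 6 genes and all lists were chosen with earlier results of these data known. From each list up to 4 genes with 20 or more reads and the largest difference were named, with the 2 nearest genes by level and the genomic neighbours of each of the 6. All other list members in the text were chosen after their values were seen. Alternatives were other pseudocounts, FPKM, rescaling, main transcripts, reads per library total and other filters. Of these steps, only the recovery of reads from FPKM and transcript length was tested on simulated libraries. Calculations used pandas 2.3.3, scipy 1.17.1, numpy 2.4.6 and matplotlib 3.10.9 under Python 3.11.15.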

Additional observations from a re-analysis of the deposited data

How the results depend on the processing

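All 6 genes stayed higher in library W2 under every alternative tried, though the size of the log2 difference moved. With a pseudocount of 0.1 it was 12.91 for Lgals7, 13.09 for Plet1 and 13.89 for Plet1os, and the median of the mineralisation list was 4.69. With a pseudocount of 5 that median was 0.74, with 3 of 9 genes higher in library W2, and the difference was 8.87 for Sfn, 6.59 for Ptx3, 5.32 for Alpl, 7.27 for Lgals7, 7.45 for Plet1 and 8.25 for Plet1os, and 2509 genes were 2-fold higher in library W2 against 2112 for library W1. Without mitochondrial and ribosomal protein genes it was 10.02 for Lgals7, 10.20 for Plet1 and 10.99 for Plet1os. Without Gm23935, a scaling chosen after seeing the data, it was 9.83 for Plet1 and 10.63 for Plet1os. On reads scaled to the library total it was 10.21 for Plet1. For Alpl, the single alkaline phosphatase with a value, it was 7.40 with a pseudocount of 0.1, 6.41 on FPKM, 7.07 without mitochondrial and ribosomal protein genes, 7.97 on its main transcript, 8.00 on reads scaled to the library total and 6.49 without Gm23935. With a filter of 20 reads, 3062 genes (34.0%) passed 2-fold on the side of library W2, against 2664 (29.6%) for library W1. The main setting gave 32.9% for library W2 and 34.7% for library W1, so the larger share changed sides. The medians of 2 lists also reversed with the filter of 20 reads: the hyaluronan list to 1.81 and the galectins, Lgals7 included, to 2.62. That filter keeps fewer genes of each list. The level per window of its own was also chosen after seeing the data. No paired analysis was possible because each title has 1 library. Depth limits the ratios of the 6 genes, whose side of library W1 rests on 31 or fewer reads a gene.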
